A study of Mus musculus with 30 samples.

Results

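The p53 response genes are targets of the transcription factor p53 that arrest the cell cycle, act in cell death or feed back on p53 itself. The members were taken as every probe set that named one of 7 genes alone (Trp53, Cdkn1a, Mdm2, Ccng1, Perp, Plk2 and Bax) in the probe tables of the 3 chips, and 5 of these genes had such probe sets, of 15964 genes named alone in the series. Cdkn1a and Mdm2 had a pair of probe sets each and Ccng1, Perp and Plk2 a single one, 7 in all, 6 on chip U74Av2 and 1 on U74Cv2. All 7 passed the filter on low signals. Trp53 and Bax were not analysed here, and probe sets of the p53 pseudogene were not used in place of Trp53.

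The study followed mouse embryonic stem (ES) cells as they became neural. The parent was the Sox1-GFP line, 129-derived, whose fluorescent reporter lights up cells that express the neuroectodermal gene Sox1. It was grown as floating aggregates by the serum-free SFEB method, which turns ES cells into neural precursors, and cells were sorted by flow cytometry. The groups were ES cells sorted as E-cadherin-positive (3 samples), day 1 cells for which the labels give no sort, day 2 E-cadherin-positive cells, day 2 E-cadherin-negative cells, day 3 Sox1-negative cells and Sox1-positive cells of day 3, day 4 and day 5 (1 sample each). No group carried a mutation, drug or DNA-damaging treatment in the labels, and all came from the reporter line. Below, the 3 Sox1-positive samples are set against the ES cells, and the other 4 aggregate samples are described as the aggregate samples not sorted as Sox1-positive.

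p53 is a DNA-binding factor that Mdm2, a ubiquitin ligase, keeps at a low level by sending it to the proteasome; the Mdm2 gene is itself switched on by p53, which closes a feedback loop. Stress signals release p53 from Mdm2, and p53 then raises its targets, of which the cyclin-dependent kinase inhibitor p21 (Cdkn1a) is the best known. ES cells are known for abundant p53 and for a p21 response that is weak compared with that of differentiated cells.

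Each sample was hybridised to the 3 Affymetrix U74 version 2 chips, 30 arrays in all, and each deposited value is the linear intensity of a probe set, with medians per array from 176 to 277. Precision is limited by how few arrays there were. The ES group alone was replicated. Whether its samples came from separate cultures is not stated, so the spread between them may be technical. Tests of lone samples against ES cells take their spread from these ES samples alone. The other tests treat single samples of different days or sorts as replicates, so their p-values also measure differences between those conditions. Of these, the comparison of Sox1-positive with other aggregate samples and the slope on day use no ES sample. Any change between day 3 and day 5 adds to the spread of the Sox1-positive samples. The actin control's ratio of 3' to 5' signal, which grows as RNA degrades, was highest in ES 3 on every chip (1.64 to 1.85). It was 1.33 to 1.44 on day 5, 1.23 to 1.33 in day 2 E-cadherin-negative cells and 0.939 to 1.25 in the other samples. The summed signal of 7 neural progenitor markers ranged from 1592 to 2031 in ES cells and from 17976 to 18941 in Sox1-positive samples. It was 10896 in day 2 E-cadherin-negative cells and between 1632 and 2280.4 in the other samples not sorted as Sox1-positive, so that day 2 E-cadherin-negative cells carried neural markers. The summed signal of 7 pluripotency markers was 33295 to 43107 in ES cells, 1645 to 6845 in Sox1-positive cells, 8710.2 in day 2 E-cadherin-negative cells and 24189 to 27706 in the other samples. For the sort genes, Cdh1 (98140_at), the E-cadherin gene, had 565 in day 2 E-cadherin-negative and 572 in day 2 E-cadherin-positive cells, so that its RNA did not separate these sorts. Sox1 (92342_at) had 241 in day 3 Sox1-negative and 308 in day 3 Sox1-positive cells. It had 310 and 252 in the Sox1-positive cells of days 4 and 5. The E-cadherin-positive and E-cadherin-negative cells of day 2 had 253 and 251. The day 5 value thus lay within the range of the aggregate samples not sorted as Sox1-positive. The sums of 7 fibroblast or feeder markers were 1958 to 2660 in ES cells, 1354 to 2817 in the other aggregate samples and 1860 to 2168 in Sox1-positive cells. Of 5 neuron markers 2 were called higher in Sox1-positive than in ES cells, Elavl4 by 2.37 (limma adjusted p 0.0248) and Nefm by 2.75 (0.00914). Counting all 5, 3 differed upward and 2 downward (lowest log2 difference -0.059), while 6.4% of the 12941 genes tested were called higher. The neuron markers summed to 12651 on day 5, against 6781 and 6318 in the Sox1-positive cells of days 3 and 4, 9768 in day 2 E-cadherin-negative cells and 6604 to 7114 in ES cells. The sum of 6 endoderm markers was 2013.5 on day 5, against 834 and 899 on days 3 and 4 and 561 to 1055 in ES cells. Between Sox1-positive and ES cells 0 of these 6 passed, 4 were higher and 2 lower. Their median log2 difference was 0.029 and the highest 1.73, so the sum does not show a rise of the whole list. The sum of 3 mesoderm markers was 477 to 533 in the other aggregate samples. It was 180 to 255 in ES cells and 227 to 274 in Sox1-positive cells. Only 2 of these markers passed the filter, and 0 were called between the other aggregate samples and ES cells. Whether other cell types were present, and any part of them in the values of Sox1-positive cells or of the other aggregate samples, was not tested.

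The p53 binding site is a pair of adjoining half-sites of 10 bases, and 2 members had such a pair just before an annotated start. They are shown because they are the windows in which a near-complete site stood, those of Cdkn1a and Ccng1. Bases that match an exact p53 half-site consensus, or a pair of half-sites with 1 mismatch in total, are in capitals. The windows hold the 250 bases before the start, from RefSeq's tables of GRCm38.p6, which were used for sequence and names alone.
Cdkn1a, chr17:29090729-29090978, plus strand: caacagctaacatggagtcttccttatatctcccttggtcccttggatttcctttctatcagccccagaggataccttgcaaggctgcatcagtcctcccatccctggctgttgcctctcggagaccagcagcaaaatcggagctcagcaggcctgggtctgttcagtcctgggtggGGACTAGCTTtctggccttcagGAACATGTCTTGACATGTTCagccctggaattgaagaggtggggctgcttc
Ccng1, chr11:40755287-40755536, minus strand: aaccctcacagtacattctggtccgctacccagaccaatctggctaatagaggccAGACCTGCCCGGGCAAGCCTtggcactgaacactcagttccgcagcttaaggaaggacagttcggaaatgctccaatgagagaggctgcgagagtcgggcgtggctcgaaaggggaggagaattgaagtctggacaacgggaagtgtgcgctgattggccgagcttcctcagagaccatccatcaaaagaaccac
In the Cdkn1a window the pair, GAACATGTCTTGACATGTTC, lay 51 to 32 bases before the start, and a further half-site, GGACTAGCTT, began 73 bases before it. In the Ccng1 window the pair, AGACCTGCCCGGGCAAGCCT, lay 195 to 176 bases before the start. The consensus is the same on both strands, and both were searched. Of 32851 windows of this length, 0.0578% (19) held a pair with at most 1 mismatch and 7.13% held an exact half-site. The second annotated start of Cdkn1a (chr17:29093519-29093768) and that of Plk2 (chr13:110394794-110395043) had no match in the window, and the window of Mdm2 (chr10:117710759-117711008, minus strand) had the half-site GAACTTGCCT alone. Perp is named without a window. A match of letters is a description of the sequence, and no binding was measured here.

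In Sox1-positive cells Plk2, Perp and one of the Mdm2 probe sets were called lower than in ES cells. Cdkn1a, Ccng1 and the other Mdm2 probe set did not pass. This split is by the threshold, and a difference between the genes was not tested. Plk2 stood at 3.45-fold and Perp at 4.31-fold lower signal, on the scale of log2(intensity + 16). The comparison asks how the sorted neuroectodermal cells differ from the cells they came from. Limma passed 3 of the 7 probe sets at an adjusted p under 0.05, all lower, against 4.84% of the 25690 probe sets of the series that were called lower and 10.5% called in either direction. By gene, with one probe set each, Plk2 and Perp were called. The median log2 difference of the 7 probe sets was -0.93, and that of all probe sets tested was -0.0033.

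Cdkn1a encodes p21, which stops cyclin-dependent kinases and arrests cells before DNA synthesis. Its probe set 94881_at had 386, 756 and 891 in the 3 ES samples, 664.5 on day 1, 883 and 825 in the E-cadherin-positive and E-cadherin-negative cells of day 2, 773 in day 3 Sox1-negative cells and 584, 757 and 503 in Sox1-positive cells of days 3, 4 and 5. The ES samples themselves spanned nearly the whole range, with ES 1 the lowest and ES 3 the highest of the 10, and every group overlapped them. The difference of Sox1-positive from ES cells was -0.075 ± 0.32 (SE) on the log2 scale, with a limma adjusted p of 0.92.

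The other Cdkn1a probe set, 98067_at, gave 507, 757 and 695 in ES cells, 548 on day 1, 368 and 399 in day 2 E-cadherin-positive and E-cadherin-negative cells, 560.1 in day 3 Sox1-negative cells and 412, 412 and 545 in Sox1-positive cells. Both day 2 sorts and the Sox1-positive samples of days 3 and 4 lay below all ES samples, and day 5 lay within their range. The log2 difference of Sox1-positive from ES cells was -0.49 ± 0.22 (SE), which did not pass (limma adjusted p 0.204). The pair of probe sets did not follow one another: their correlation over the 10 samples was -0.0054 (Pearson) and -0.079 (Spearman), so that the signal of Cdkn1a depends here on the probe set read.

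Ccng1 encodes cyclin G1, a p53 target that works with protein phosphatase 2A on Mdm2. Its signal (160127_at) was 985, 805 and 864 in ES cells, 1546 on day 1, 1047 and 1167 in day 2 E-cadherin-positive and E-cadherin-negative cells, 984 in day 3 Sox1-negative cells and 1013, 1439 and 859 in Sox1-positive cells of days 3, 4 and 5. Day 1 and day 4 were high and stood apart from the rest, whereas day 5 lay within the ES range. The log2 difference of Sox1-positive from ES cells was 0.29 ± 0.22 (SE), with a limma adjusted p of 0.502.

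Plk2 encodes a polo-like kinase that acts in the cell cycle and is induced by p53. Its signal (92310_at) was 1251, 2472 and 1831 in ES cells, 2469.6 on day 1, 1885 in day 2 E-cadherin-positive cells, 954 in day 2 E-cadherin-negative cells, 956 in day 3 Sox1-negative cells and 662, 453 and 432 in Sox1-positive cells of days 3, 4 and 5. The 3 Sox1-positive samples were the lowest of the 10 and overlapped neither the ES cells nor the other aggregate samples. The signal went from 1851 ± 611 (SD, n = 3) in ES cells to 516 ± 127 (SD, n = 3), a log2 change of -1.78 ± 0.28 (SE) with a limma adjusted p of 0.00742. Without any single sample the call held (highest adjusted p 0.0363), and it ended when ES 3 and day 5, where the actin ratio was highest, were both left out (-1.66, limma adjusted p 0.0639).

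Perp encodes a membrane protein of desmosomes that p53 induces in apoptosis. Its signal (97825_at) was 496, 545 and 339.9 in ES cells, 567 on day 1, 322 and 214 in day 2 E-cadherin-positive and E-cadherin-negative cells, 191 in day 3 Sox1-negative cells and 140.4, 142.5 and 35.6 in Sox1-positive cells of days 3, 4 and 5. The Sox1-positive samples were again the 3 lowest, day 5 far below the others, and the ranges of the Sox1-positive and ES samples did not meet. The day 5 signal was also below 78.6, the mean over all samples that a probe set on this chip needed to be tested. The signal went from 460.2 ± 107 (SD, n = 3) to 106 ± 61.1 (SD, n = 3), a log2 change of -2.11 ± 0.43 (SE) with a limma adjusted p of 0.0198. The call ended without ES 1 (-2.04, adjusted p 0.0544) and without ES 2 (-1.98, adjusted p 0.085).

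Mdm2, the inhibitor of p53, was read by a probe set on each of 2 chips. On U74Av2 (98110_at) it gave 1101, 1878 and 1453 in ES cells, 2494 on day 1, 1303.5 and 774 in day 2 E-cadherin-positive and E-cadherin-negative cells, 969.7 in day 3 Sox1-negative cells and 694, 789.95 and 717 in Sox1-positive cells. Day 1 was the highest sample, the Sox1-positive samples lay close together below all ES samples, and day 2 E-cadherin-negative cells lay among them. The signal went from 1477 ± 389 (SD, n = 3) in ES cells to 734 ± 50.002 (SD, n = 3), a log2 change of -0.96 ± 0.22 (SE) with a limma adjusted p of 0.0303. This call ended with no filter on low signals (adjusted p 0.0527), without ES 2, ES 3, day 3, day 4 or day 5 (0.0739 to 0.0999) and without ES 3 and day 5 together (0.152).

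On U74Cv2 the Mdm2 probe set 134102_at gave 3867, 3717 and 2524 in ES cells, 6146 on day 1, 7861 in day 2 E-cadherin-positive cells, 2331 in day 2 E-cadherin-negative cells, 3522 in day 3 Sox1-negative cells and 2066, 2325 and 1077 in Sox1-positive cells of days 3, 4 and 5. Here day 1 and day 2 E-cadherin-positive cells were the highest, day 5 was the lowest, and the Sox1-positive samples lay below every other sample, by a small margin in the case of day 4 and day 2 E-cadherin-negative cells. The log2 difference from ES cells was -0.93 ± 0.37 (SE), close to that of the other probe set, and did not pass (limma adjusted p 0.176). With the mean of both probe sets as the value of the gene, Mdm2 passed (-0.95, limma adjusted p 0.0317). That fit pooled the chips and was adjusted over genes in place of probe sets, so its adjusted p cannot be set directly against 0.176. The pair of probe sets had a Pearson correlation of 0.71 over the 10 samples, and they differed most in day 2 E-cadherin-positive cells, which were high with 134102_at and within the ES range with 98110_at.

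**Figure D1:**
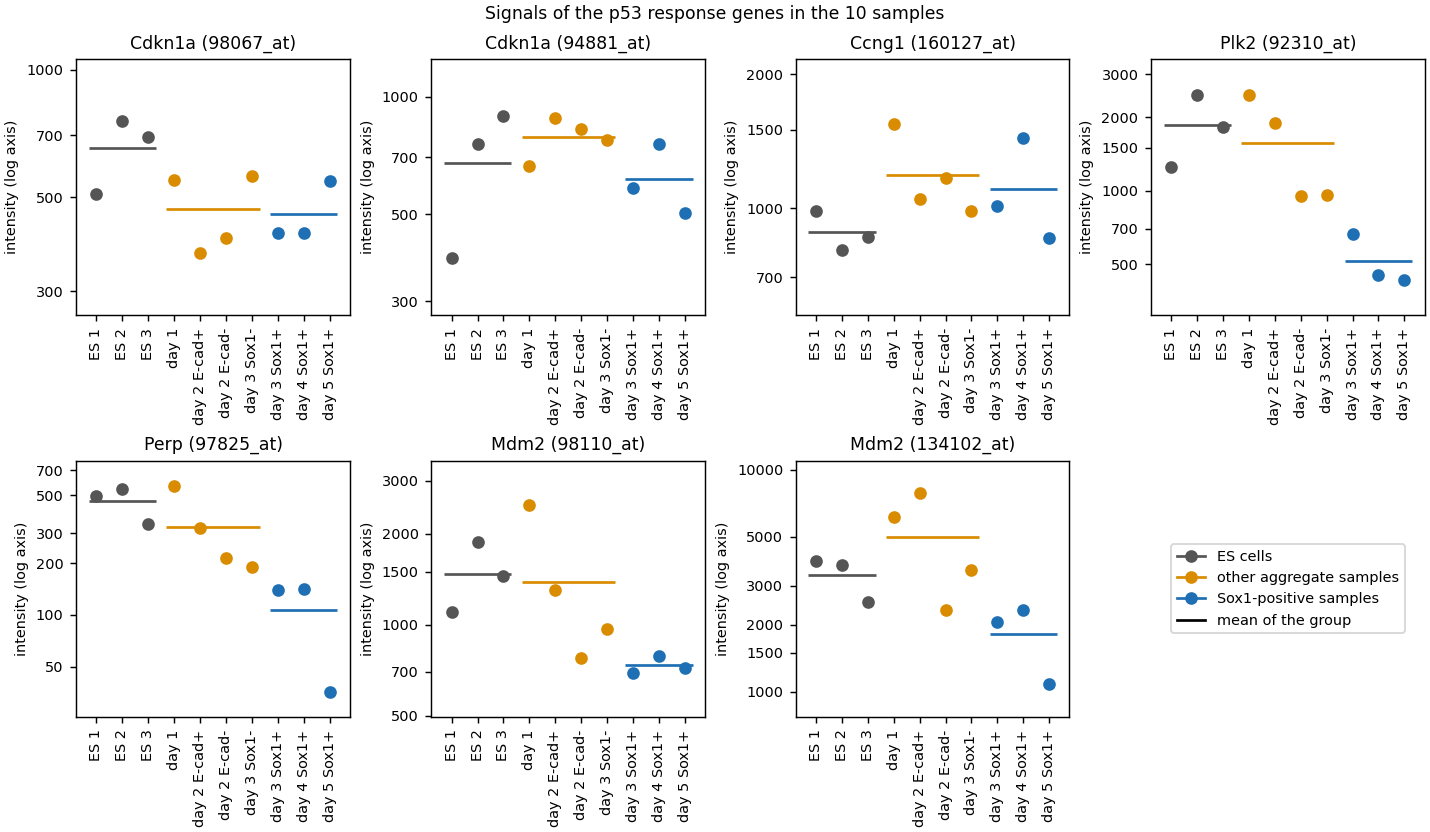
Intensity (log axis) of each of the 7 probe sets in the 10 samples, with ES cells in grey, the other aggregate samples in orange, Sox1-positive samples in blue and a line at the mean of each group. Plk2 falls to 432 and Perp to 35.6 on day 5, Mdm2 98110_at and Ccng1 peak on day 1, and the pair of Cdkn1a probe sets differ in their pattern.

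The 3 Sox1-positive and 3 ES samples did not overlap in 4 of the 7 probe sets (both of Mdm2, Perp and Plk2), all lower in Sox1-positive cells, where 30.5% of all probe sets tested had no overlap and 15.1% were lower with none. The pluripotency and neural progenitor marker sums given above moved between the same groups, and the neuron and endoderm sums were highest on day 5. The part of any of these in the falls was not tested. In sorted populations fewer cells of a type and less RNA per cell cannot be told apart.

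The 4 aggregate samples not sorted as Sox1-positive showed no call among the members against ES cells. Limma passed 0 of the 7 probe sets (0 also at an unadjusted p under 0.05, which 2640 or 10.3% of 25690 had in the series), with adjusted p from 0.507 to 0.885, and it passed 17 of 25690 in the series (0.0662%). Perp had the largest difference, -0.59 ± 0.35 (SE; limma adjusted p 0.592), and Mdm2 134102_at had 0.43 ± 0.43 (SE; limma adjusted p 0.77). These 4 samples differed in day and sort, and the ranges of Plk2 (954 to 2469.6), Perp (191 to 567) and Mdm2 98110_at (774 to 2494) in them were wide.

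Sox1-positive cells had lower mean values than these 4 samples in all 7 probe sets, by differences from -0.026 for Cdkn1a 98067_at to -1.52 for Perp. With single samples left out, Cdkn1a 98067_at reached 0.064 and Ccng1 0.047, so that their sign was not stable. Limma passed 0 of the 7 after adjustment and 3 at an unadjusted p under 0.05, against 371 of 25690 called in the series (1.44%) and 5093 (19.8%) unadjusted. Those 3 were Plk2 (-1.48 ± 0.35, SE; limma adjusted p 0.0715), Perp (-1.52 ± 0.47, SE; 0.121) and Mdm2 134102_at (-1.36 ± 0.47, SE; 0.164), and in each the groups did not overlap, as in 18.3% of all probe sets. Plk2 passed without the day 2 E-cadherin-negative sample, which carried neural markers (-1.67, limma adjusted p 0.0241). It also passed with the filter at the 60th percentile (adjusted p 0.0463) and with a mean-variance trend (0.049).

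**Figure D2:**
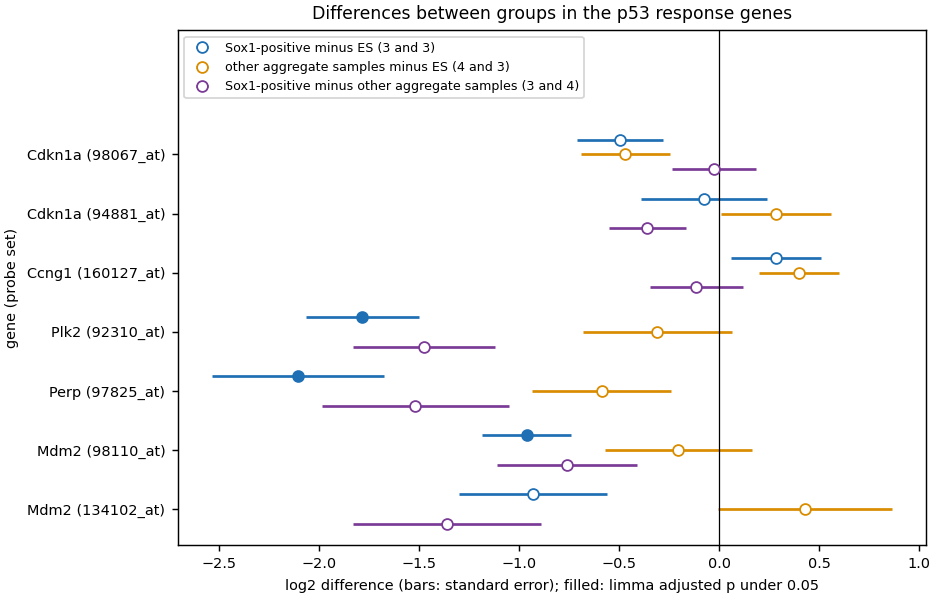
Log2 differences (points) with their standard errors (bars) for the 7 probe sets in 3 comparisons of groups, filled where the limma adjusted p is under 0.05. The filled points are Plk2, Perp and Mdm2 98110_at for Sox1-positive cells against ES cells, at -1.78, -2.11 and -0.96.

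Over the 7 aggregate samples of days 1 to 5 the same genes declined with the day, without passing the adjusted test. The slope per day was -0.77 ± 0.10 (SE) for Perp, -0.65 ± 0.11 for Plk2, -0.59 ± 0.17 for Mdm2 134102_at and -0.36 ± 0.12 for Mdm2 98110_at on the log2 scale. Their limma adjusted p were 0.12, 0.12, 0.179 and 0.212. Of the 7 probe sets 4 had an unadjusted p under 0.05 and 0 passed, where 4326 and 2 (0.00779%) of 25690 did so in the series. The slopes of Cdkn1a (-0.11 and 0.030) and Ccng1 (-0.12) were smaller than 1.5 times their standard errors. Without day 3 Sox1-negative cells the slope of Perp passed (-0.77, limma adjusted p 0.0438). The sort changed with the day, so that day and sort cannot be told apart in these slopes.

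On day 1 Mdm2 and Ccng1 stood above all ES samples, in a single sample. Against the ES cells, Mdm2 differed by 0.78 (98110_at) and 0.89 (134102_at), Ccng1 by 0.80, Plk2 by 0.47, Perp by 0.32 and Cdkn1a by 0.054 (94881_at) and -0.23 (98067_at) on the log2 scale. Cdkn1a 94881_at turned to -0.30 without ES 1 and Cdkn1a to -0.087 with its probe sets averaged. Plk2 (2469.6) lay within the ES range (1251 to 2472), and Perp (567) was little above ES 2 (545). The differences of Plk2 and Perp were smaller than the SD of the ES samples on the log2 scale (0.49 and 0.35). None passed: limma adjusted p ran from 0.714 for Ccng1 to 0.992 for Cdkn1a 94881_at, with 1 of the 7 (Ccng1) at an unadjusted p under 0.05, and 0 of 25690 probe sets passed in the series (1625 unadjusted). Day 1 was the highest of the 10 samples in 3 of the 7 probe sets (Mdm2 98110_at, Ccng1 and Perp), where it was the highest in 9.35% of all probe sets. In Plk2 and Mdm2 134102_at it was the second highest. Its actin ratios were 1.10 to 1.14, and it is the sample for which the labels give no sort. The part of the missing sort in these values was not tested.

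Later samples differed from ES cells gene by gene, and for Mdm2 by probe set. Mdm2 98110_at differed by -0.15 in day 2 E-cadherin-positive and -0.57 in day 3 Sox1-negative cells, where 134102_at was above ES cells. In day 2 E-cadherin-negative cells Mdm2 134102_at differed by -0.50, in the same direction as 98110_at. Day 2 E-cadherin-positive cells had Mdm2 134102_at at 1.24 above ES cells (limma adjusted p 0.583) and Plk2 at 0.080 (0.977), and Cdkn1a 98067_at at -0.78 (0.604) and Perp at -0.47 (0.794). Day 2 E-cadherin-negative cells had Perp at -1.02 (0.275), Plk2 at -0.89 (0.403) and Mdm2 98110_at at -0.88 (0.346). Day 3 Sox1-negative cells had Perp at -1.18 (0.538), Plk2 at -0.89 (0.781) and Mdm2 134102_at at 0.089 (0.982). In these 3 samples limma passed 0 of the 7 members (2, 2 and 1 at an unadjusted p under 0.05), and 0, 7 and 0 of 25690 probe sets in the series (0.0272% for the second; 2087, 3506 and 1709 unadjusted). The same ES samples served in every comparison with ES cells.

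Between the sorts of one day the samples were single, and no test was made. In day 2 cells, E-cadherin-negative minus E-cadherin-positive, Mdm2 differed by -1.75 (134102_at) and -0.74 (98110_at), Plk2 by -0.97 and Perp by -0.55, while Ccng1 (0.15) and Cdkn1a (-0.096 and 0.11) were nearly level. Of all probe sets 13.6% differed by 1 or more in this pair, against 8.19%, 10.1% and 13.9% between the pairs of ES samples, and Mdm2 134102_at was the one member probe set past that size. In day 3 cells, Sox1-positive minus Sox1-negative, all members but Ccng1 (0.042) were lower in Sox1-positive cells, with Mdm2 at -0.76 and -0.47, Plk2 at -0.52, Cdkn1a at -0.39 and -0.43 and Perp at -0.40. None reached 1, which 15.4% of all probe sets did.

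The members varied together only in part. Over the 10 samples, log2 signals of Plk2 correlated with those of Mdm2 98110_at at 0.91 and of Perp at 0.89, and Perp with the Mdm2 probe sets at 0.81 and 0.80 (Pearson). Ccng1 correlated with Plk2 at -0.070 and with Perp at 0.13, and Cdkn1a 94881_at with Plk2 at 0.31 and with Perp at 0.16. These values describe 10 samples that share their arrays and hold the step from ES to Sox1-positive cells.

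Among all genes tested, those with the pattern nearest to each member, by Pearson correlation of log2 signals over the 10 samples, were as follows. For Plk2 they were Tmem126b (0.98) and Cox18 (0.98), for Perp Lasp1 (0.97) and Them5 (0.96), and for Mdm2 (134102_at) Exosc1 (0.95) and Rif1 (0.94). For Ccng1 they were Rad51d (0.92) and Gins3 (0.91), and for Cdkn1a (94881_at) Myh11 (0.90) and Fgd5 (0.90). These are the highest values among 12941 genes and describe the same 10 samples.

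The wider p53 network was read from 4 lists: regulators of p53, arrest targets, apoptosis targets with the BCL2 family, and targets in repair, redox and metabolism. In Sox1-positive against ES cells limma called 4 genes that rose and 12 that fell among 84 list genes tested, where 6.4% of 12941 genes rose and 6.17% fell. The largest rise was that of Rprm, which encodes reprimo, an inducer of arrest before mitosis, and the largest fall that of Sfn (14-3-3 sigma), another gene of that arrest. Arrest targets thus moved in both directions.

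Of the 13 arrest targets tested, of 15 listed, 1 rose, 4 fell and 8 did not pass, with a median log2 difference of -0.41 against -0.013 over all genes. Rprm (107144_at) had 669, 1496 and 1425 in ES cells, 1630.1 on day 1, 912 and 3362 in day 2 E-cadherin-positive and E-cadherin-negative cells, 799.5 in day 3 Sox1-negative cells and 6767, 10495 and 7312 in Sox1-positive cells. The Sox1-positive samples stood above all others, with day 2 E-cadherin-negative cells next, and the log2 change was 2.82 ± 0.34 (SE; limma adjusted p 0.00291). Sfn (96704_at) had 492, 599 and 392.3 in ES cells, 202 on day 1, 202 and 75.5 in day 2 E-cadherin-positive and E-cadherin-negative cells, 270.4 in day 3 Sox1-negative cells and 19.9, 54.3 and 91.8 in Sox1-positive cells. Every aggregate sample lay below the ES cells, and the log2 change was -2.96 ± 0.38 (SE; limma adjusted p 0.00321). The Sox1-positive mean, 55.3, was below 78.6, the mean over all samples that a probe set on this chip needed to be tested. Sfn passed that filter through its higher signals in other samples, and the size of its fall rests on low signals. Sfn was filtered out at the 60th percentile of signal.

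Pml (111453_at), which encodes the scaffold of nuclear bodies in which p53 is modified, had 2089, 2246 and 2252 in ES cells, 2478 on day 1, 2091 and 1055 in day 2 E-cadherin-positive and E-cadherin-negative cells, 2206 in day 3 Sox1-negative cells and 390.2, 641 and 495 in Sox1-positive cells. The Sox1-positive samples were the lowest, with day 2 E-cadherin-negative cells between them and the rest. The log2 change from ES cells was -2.10 ± 0.22 (SE; limma adjusted p 0.00162). Gadd45a (102292_at, -1.34, limma adjusted p 0.00467), a damage-induced growth arrest gene, and Gtse1 (103270_at, -1.33, 0.00765), a microtubule-bound protein that moves p53 out of the nucleus, also fell. Both were named after their values were seen. The calls of Rprm, Sfn, Pml, Gadd45a and Gtse1 held without any single sample (highest adjusted p 0.0409), and that of Gtse1 ended without ES 3 and day 5 together (0.0561).

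Of 26 regulators tested, of 30 listed, 0 rose, 3 fell and 23 did not pass (median -0.28). Ppp1r13b (130745_at), which encodes the p53 cofactor ASPP1, had 775, 492 and 922 in ES cells, 1449 and 1356 on day 1 and in day 2 E-cadherin-positive cells, 444 in day 2 E-cadherin-negative cells, 569 in day 3 Sox1-negative cells and 154, 290.2 and 130.2 in Sox1-positive cells. It thus had its highest values on day 1 and in day 2 E-cadherin-positive cells, as Mdm2 134102_at did, and its fall in Sox1-positive cells was -1.88 ± 0.39 (SE; limma adjusted p 0.0253). Sirt1 (111531_at), a deacetylase of p53, fell by 1.33 (limma adjusted p 0.0484), and Usp7 (95482_at), a deubiquitinase of Mdm2 and p53 named after its value was seen, fell by 0.77 (0.0291). Each of these calls ended without several single samples: Ppp1r13b (up to 0.0759) without ES 1, ES 3, day 3 or day 5, Sirt1 without each of the 6 (0.132) and Usp7 without each of the 6 (0.0861). Ppp1r13b also lost its call with adjustment within each chip (0.0775), Usp7 with no filter (0.051) and Sirt1 with no filter (0.0805), quantile normalization (0.0512) and a pseudocount of 1 (0.0574).

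Of 20 apoptosis and BCL2 family genes tested, of 25 listed, 0 rose, 2 fell and 18 did not pass (median -0.068). Trp53inp1 (108581_at), a stress protein that promotes p53 phosphorylation, had 4139, 3657 and 4042 in ES cells, 6407 on day 1, 3691 and 2188 in day 2 E-cadherin-positive and E-cadherin-negative cells, 2895 in day 3 Sox1-negative cells and 1990.2, 2097.5 and 1259 in Sox1-positive cells. Day 1 was well above every other sample and the Sox1-positive samples were below all, with a log2 change of -1.17 ± 0.24 (SE; limma adjusted p 0.0203). Bid (98433_at), a cell death protein that links caspases to mitochondria, fell by 0.86 (limma adjusted p 0.0141). The call of Trp53inp1 ended without any single ES sample (highest adjusted p 0.0647) and that of Bid without ES 2 or day 4 (0.0622).

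Of 25 targets in repair, redox and metabolism tested, of 36 listed, 3 rose, 3 fell and 19 did not pass (median -0.071). Pxdn (107575_at), a peroxidase of the extracellular matrix, had 219, 405 and 286 in ES cells, 377 on day 1, 576 and 852 in day 2 E-cadherin-positive and E-cadherin-negative cells, 757 in day 3 Sox1-negative cells and 1312, 1319.9 and 1136 in Sox1-positive cells. It was high in all Sox1-positive samples and in between from day 2 on, and its log2 change was 2.03 ± 0.25 (SE; limma adjusted p 0.00291). Trim32 (163170_at), a ubiquitin ligase, rose by 1.16 (0.0141), and Xpc (95626_at), a DNA damage sensor named after its value was seen, rose by 0.86 (0.0304). Tigar (166340_at), an enzyme that restrains glycolysis, fell by 1.70 (limma adjusted p 0.0204), Steap3 (112745_at), a metalloreductase, fell by 1.59 (0.0181), and Phlda3 (98056_at), a repressor of Akt named after its value was seen, fell by 0.87 (0.0376).

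The call of Pxdn held without any single sample (highest adjusted p 0.017). Trim32 lost its call without day 4 (0.057), Tigar (up to 0.0736) without ES 1, ES 2, day 3 or day 5 and with adjustment within each chip (0.0646), and Steap3 without ES 2, day 4 or day 5 (0.0686). Xpc lost it without any single sample but day 3 (0.113) and Phlda3 without any single sample but day 4 (0.133), and both with no filter (0.0527 and 0.0637). Without ES 3 and day 5 together the calls of Ppp1r13b, Sirt1, Usp7, Trp53inp1, Bid, Trim32, Tigar, Xpc and Phlda3 ended (adjusted p 0.0914 to 0.18).

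**Figure D3:**
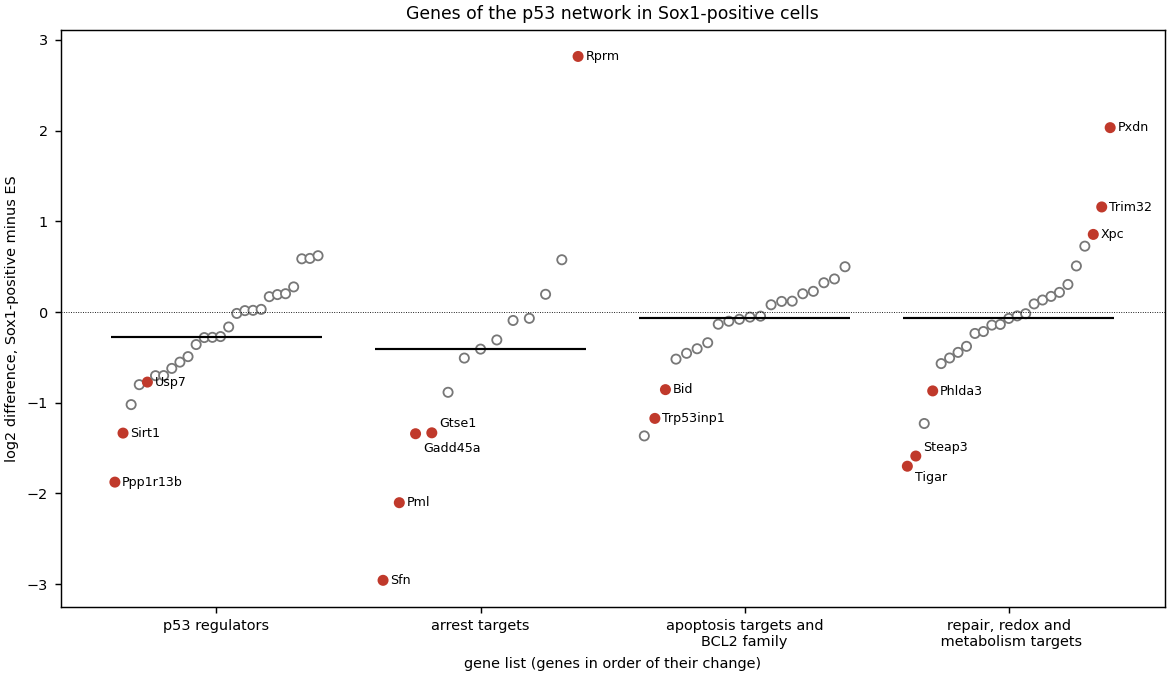
Log2 difference of Sox1-positive from ES cells for each tested gene of the 4 lists, in order within a list, with a line at the list's median. Filled red points passed (limma adjusted p under 0.05): Rprm at 2.82 and Pxdn at 2.03 are the highest and Sfn at -2.96 the lowest.

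Against the other aggregate samples 3 of the 84 list genes passed, where 1.75% of all genes did: Rprm rose by 2.49 ± 0.46 (SE; limma adjusted p 0.045), Trim32 rose by 1.199 ± 0.18 (0.0308) and Pml fell by 1.87 ± 0.32 (0.0394). Each of these calls ended without any single sample but day 2 E-cadherin-negative cells (highest adjusted p 0.15, 0.117 and 0.14) and with no filter, and that of Rprm also with quantile normalization and with a pseudocount of 1. Without that sample 14 list genes passed, while the probe sets called in the series went from 371 to 2227 of 25690 (8.67%). In the other aggregate samples against ES cells, in the slope on day and in each lone sample against ES cells, limma passed 0 of the 84. Of all 12941 genes it passed 4 (0.0309%) and 2 (0.0155%) in the first pair of these comparisons, and 3 (0.0232%) in day 2 E-cadherin-negative cells. At an unadjusted p under 0.05 there were 7 list genes in the first and 20 in the second of these comparisons, and 8 to 16 in the lone samples. Of all 12941 genes 1300 (10.0%), 2411 (18.6%) and 813 to 1891 (6.28% to 14.6%) had one.

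High values on day 1 were also seen in some genes of the lists, but not across all 4 lists. The median log2 difference of day 1 from ES cells was 0.20 in apoptosis and BCL2 family genes and 0.18 in repair, redox and metabolism. It was -0.16 in regulators and -0.017 in arrest targets, against 0.014 over all genes. Of the 84 list genes, 20 (23.8%) had their highest signal of the 10 samples on day 1, against 10.3% of all genes tested: 3 of 26 regulators, 4 of 13 arrest targets, 6 of 20 apoptosis and BCL2 family genes and 7 of 25 in repair, redox and metabolism. They included the p53 inhibitor Mdm4, the arrest gene Btg2, the apoptosome gene Apaf1, the death-domain gene Pidd1 and the ribonucleotide reductase subunit Rrm2b, named after their values were seen. Phlda3 had 1582, 1846 and 1602.5 in ES cells and 2755 on day 1, against 744 to 1190 in the later samples. None of these differences passed in limma (0 of 84 list genes, 8 at an unadjusted p under 0.05, or 9.52%, against 6.28% of all genes), and the count was 21 both with quantile normalization and with scaling to the 75th percentile, alternatives chosen after seeing the data. The count was made after the day 1 values of the members had been seen, and it rests on 1 sample.

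**Figure D4:**
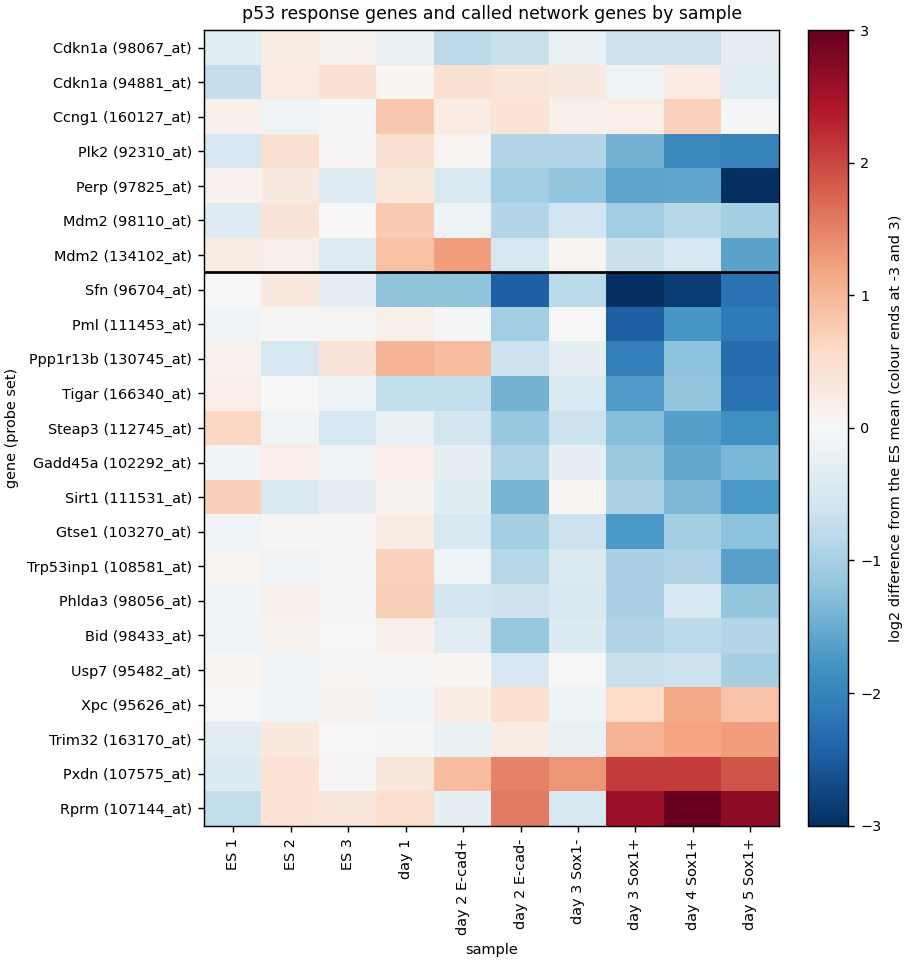
Log2 difference of each sample from the ES mean for the 7 member probe sets (above the line) and the 16 list genes called in Sox1-positive cells (below it), with colour ends at -3 and 3. Day 1 is red for Mdm2, Ccng1, Trp53inp1 and Phlda3, and the Sox1-positive columns are blue for Plk2, Perp, Sfn and Pml and red for Rprm, Pxdn, Trim32 and Xpc.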

How the data were processed

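The authors' deposited values were linear intensities, 1 per probe set and array, for 10 samples on 3 chips. The 2% trimmed mean of every array lay near 500.2, so they were scaled before deposit. Software, background correction and scaling method: not given in the sources used here. Control probe sets (198) were left out, and 29131 of the other 36701 probe sets named 1 gene in the platform's tables, with symbols updated by Entrez ID to RefSeq names of GRCm38.p6.

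Values were analysed as log2(intensity + 16), which understates the changes of low signals. Probe sets whose mean reached the 30th percentile of their chip were tested (25690), and for counts by gene the probe set with the highest mean log2 value was kept (12941 genes). Groups were compared by lmFit and eBayes of limma 3.58.1 (R 4.3.3), fitted per chip, p-values were adjusted across all 3 chips by Benjamini-Hochberg, and an adjusted p under 0.05 was called. Lone samples were compared with ES cells in a fit of 8 groups, whose spread comes from the ES samples alone. Means over a gene's probe sets were fitted with the chips pooled and adjusted over genes. The code was tested on simulated data. Figures were drawn with matplotlib 3.10.9 in Python 3.11.15.

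The members and the gene lists were chosen with earlier results of these data known. Members were always named, and of each list the 2 largest called changes in each direction, with other genes marked as named after their values were seen. Alternatives were a pseudocount of 1 or 64, quantile normalization, scaling to the 75th percentile, a filter at the 60th percentile or none, a mean-variance trend, adjustment within each chip, averaging a gene's probe sets, leaving out each sample, and leaving out ES 3 and day 5 together.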

Additional observations from a re-analysis of the deposited data

How the results depend on the processing

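With 4 samples or fewer in a group, calls among the p53 response genes and their network rest on few arrays. In Sox1-positive against ES cells 2 member genes were called, 1 with the filter at the 60th percentile, which left Perp out, 1 without ES 3 and day 5 together, and 1 to 2 with single samples left out. Called regulators (3) were 1 with no filter, 5 with the filter at the 60th percentile, 5 with a mean-variance trend, 0 without ES 3 and day 5 together and 0 to 1 with single samples left out. Apoptosis genes (2) were 0 without ES 3 and day 5 together and 0 to 2 with single samples left out, and repair, redox and metabolism genes (6) were 2 and 2 to 4. All probe sets called (2710) were 1055 without ES 3 and day 5 together and 1233 to 2162 with single samples left out. The cause of these shifts was not tested.

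For Sox1-positive against other aggregate samples, 0 member genes were called, 1 with the filter at the 60th percentile, 1 with the trend and 0 to 1 with single samples left out. Arrest targets (2) were 1 with quantile normalization, 1 with a pseudocount of 1, 0 without the filter and 0 to 4 with single samples left out. Repair, redox and metabolism genes (1) were 0 with no filter and 0 to 6, regulators (0) 1 with the filter at the 60th percentile, 1 with the trend and 0 to 3, and apoptosis genes (0) 1 with the trend and 0 to 1. All probe sets called (371) were 201 and 694 with pseudocounts of 1 and 64, 131 with no filter, 679 with the filter at the 60th percentile, 790 with the trend, 596 with adjustment within each chip and 4 to 2227 with single samples left out, the highest without day 2 E-cadherin-negative cells.

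For other aggregate samples against ES cells the 17 probe sets were 10 with quantile normalization, 28 with a pseudocount of 64, 10 with no filter, 26 with the filter at the 60th percentile, 28 with the trend, 10 without ES 3 and 5 to 20 with single samples left out. For the slope on day the 2 were 0 with quantile normalization, no filter, a pseudocount of 64, the filter at the 60th percentile and the trend, and 0 to 105 with single samples left out, when 0 to 1 member genes passed. For day 1 the 0 were 1 with a pseudocount of 64, the filter at the 60th percentile and adjustment within each chip, and 0 to 72 with single ES samples left out. For day 2 E-cadherin-negative cells the 7 were 4 and 131 with pseudocounts of 1 and 64, 0 with no filter, 231 with the filter at the 60th percentile, 166 with the trend, 59 with adjustment within each chip and 0 to 473. For day 2 E-cadherin-positive cells the 0 were 1, 4 and 1 with a pseudocount of 64, the filter at the 60th percentile and adjustment within each chip, and 0 to 92. For day 3 Sox1-negative cells they were 3, 7, 3 and 3 with a pseudocount of 64, that filter, the trend and adjustment within each chip, and 0 to 116. With a size of 2 in place of 1, 603 probe sets in the day 2 sorts and 830 in the day 3 sorts were past it, against 3484 and 3949.

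Reversals of sign touched member values that did not pass. With single samples left out, Cdkn1a 94881_at ran from -0.43 to 0.16 in Sox1-positive against ES cells, -0.068 to 0.52 in the other aggregate samples, -0.30 to 0.29 on day 1 and -0.085 to 0.50 in day 3 Sox1-negative cells. Without ES 3 and day 5 together its difference in Sox1-positive cells was 0.29. Cdkn1a 98067_at ran from -0.16 to 0.064 and Ccng1 from -0.32 to 0.047 in Sox1-positive against other aggregate samples, and the slope of Cdkn1a 98067_at from -0.051 to 0.13. Mdm2 98110_at ran from -0.53 to 0.024 in the other aggregate samples and -0.34 to 0.043 in day 2 E-cadherin-positive cells, Plk2 from -0.17 to 0.31 in the latter, and Mdm2 134102_at from -0.11 to 0.20 in day 3 Sox1-negative cells. With both probe sets averaged, Cdkn1a had -0.092 in the other aggregate samples, -0.087 on day 1, -0.15 in day 2 E-cadherin-negative and -0.16 in day 2 E-cadherin-positive cells, and Mdm2 had -0.24 in day 3 Sox1-negative cells. No paired analysis was possible because only the ES group had more than 1 sample, so that no groups shared more than 1 replicate number.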
